A study of Mus musculus with 6 samples.

Results

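Transcripts of 10 Notch pathway genes were compared between proximal and distal progenitors of the mouse forelimb skeleton and tendons at embryonic day 13.5. The genes were the receptor genes Notch1, Notch2 and Notch3, the ligand genes Jag1 and Dll1, the nuclear complex genes Rbpj and Maml1 and the target genes Hes1, Hey1 and Heyl. They were chosen by name as pathway components, and all 10 were among the 13158 genes of the deposited table. The cells came from wild-type C57BL/6 embryos that carried Sox9-CreERT2, a Rosa26-tdTomato reporter and ScxGFP in both groups, and were sorted as positive for both labels. How and when the recombinase was activated is not stated here. A CreERT2 label marks cells that expressed Sox9 when the recombinase was active, together with their descendants, so tdTomato does not report Sox9 at the time of sorting. There were 3 proximal and 3 distal libraries of bulk MARS-seq, which counts the 3' ends of transcripts, with total counts of 1585631 to 2623788. The labels do not say how embryos were divided among libraries, so p-values reflect the spread among these 6 libraries alone. Part of that spread may be technical. Same-numbered libraries of the regions share a number in their sample titles, whose meaning is not stated. Whether they are paired is thus unknown, and the main test took them as unpaired.

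Notch signalling passes between touching cells. A ligand of the Delta or Jagged family on one cell binds a Notch receptor on its neighbour, and proteases of the ADAM family and the gamma-secretase complex then release the receptor's intracellular domain. That domain enters the nucleus, joins the DNA-binding protein RBPJ and a Mastermind-like coactivator, and switches on Hes and Hey genes, whose products are transcriptional repressors. In the limb the pathway is known for restraining the maturation of chondrocyte precursors, and it also acts in vessels and in muscle precursors.

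The sorted populations held transcripts of Sox9 and Scx, the genes on which the labels are based, though cells were sorted on the labels themselves. All 8 progenitor markers examined were tested, and Sox9 and Scx were detected in each library and were higher in distal ones. Of 9512 genes that passed a filter on low counts, 322 had an adjusted p under 0.05 by the quasi-likelihood test of edgeR. Distal libraries were the higher ones for 106 and proximal libraries for 216. Summed markers of Schwann and nerve cells ran from 16.8 to 33.9 CPM (counts after every library is brought to the same total, with 1 TMM scaling factor per library) in proximal and from 36.3 to 60.2 CPM in distal libraries, those of blood cells from 7.66 to 59.2 and from 1.88 to 11.3, and those of epidermis from 63.0 to 80.2 and from 50.8 to 78.5. Rn45s, the 45S pre-ribosomal RNA, held 11.7% of counts in proximal library 1 and 2.20% to 6.81% in the others. Proximal library 1 and distal library 3 deviated in opposite ways from their regions' means (correlation across genes -0.60), and values without both are given where they change a result.

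Transcripts of all 10 genes were found in both regions, and the receptor and nuclear complex genes were found at levels that overlapped between them. The clearest difference lay in Heyl, a target gene, which was lower in distal libraries. Hey1, a second target, was lower in each distal library than in any proximal one but did not pass the test, and Hes1 overlapped between regions. Of the 10 genes, 8 passed the filter on low counts; Jag1 and Dll1 did not. Heyl was the 1 gene of these 8 that passed the test, against 3.39% of all 9512 genes tested (2.27% with proximal and 1.11% with distal libraries higher). The libraries of the regions did not overlap for Hey1 and Heyl, 2 of the 8, against 16.2% of all genes tested (8.67% with proximal and 7.54% with distal libraries higher). The median log2 fold change (distal over proximal) was -0.09 for the 8 and 0.01 for all genes tested.

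**Figure D1:**
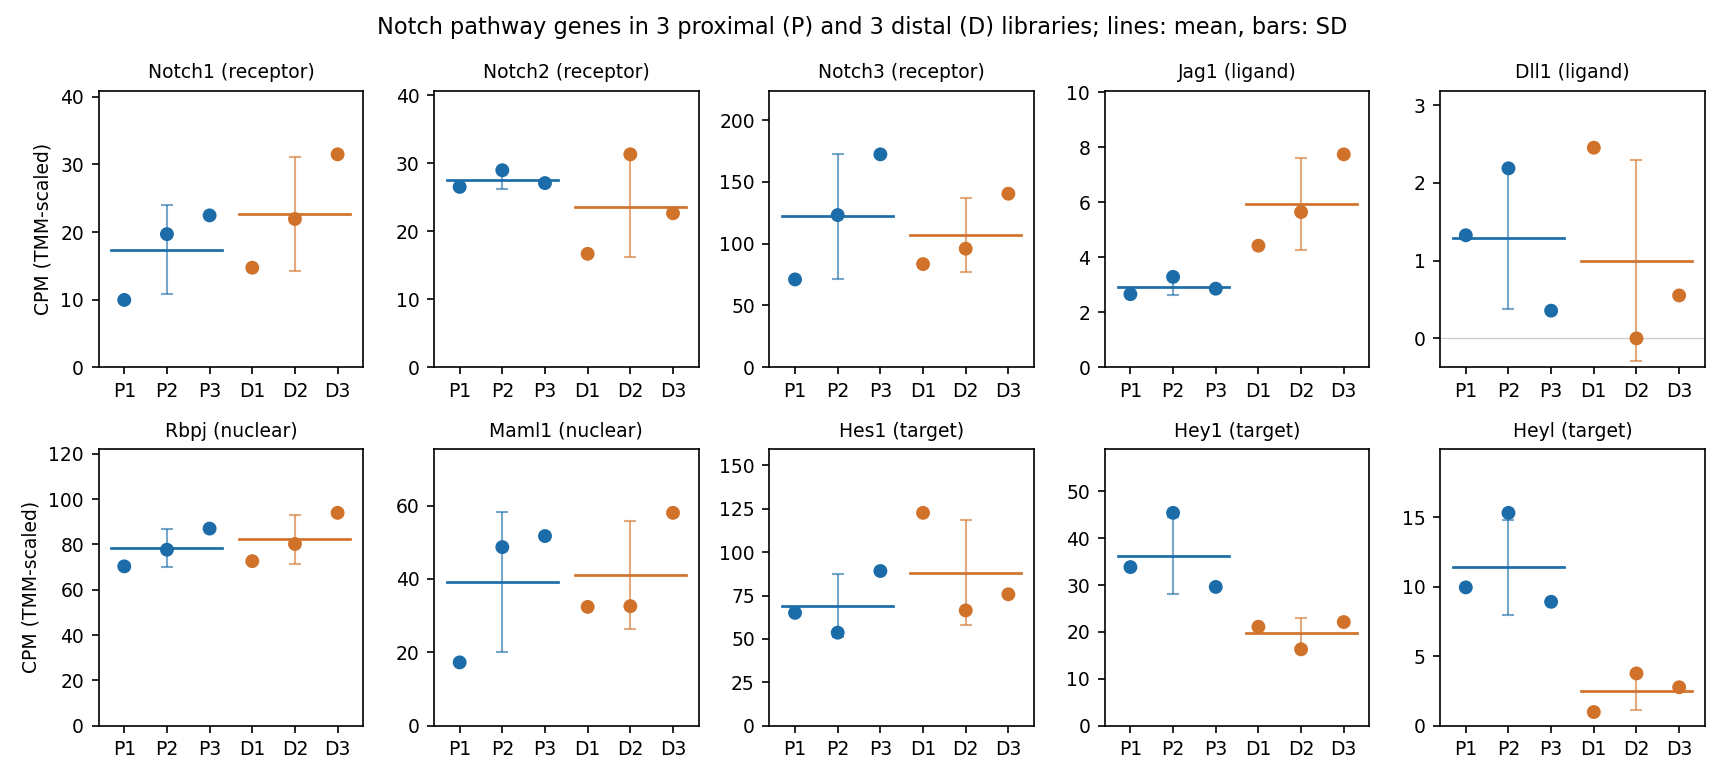
TMM-scaled CPM of the 10 Notch pathway genes in proximal libraries 1 to 3 (P1 to P3) and distal libraries 1 to 3 (D1 to D3), with region means as lines and SD as bars; each panel has its own axis. Heyl and Hey1 are lower in all 3 distal libraries, Jag1 is higher in them at few counts, and the other genes overlap.

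Heyl (chromosome 4, 123233556 to 123249875, plus strand, GRCm38) encodes a basic helix-loop-helix repressor that is known as a Notch target in myogenic cells and in the smooth muscle cells of vessels. It stood at 9.95, 15.3 and 8.91 CPM in proximal libraries 1 to 3 and at 0.981, 3.76 and 2.76 CPM in distal libraries 1 to 3. The lowest proximal value was thus above the highest distal one. The log2 fold change was -2.20 (SE 0.48, 95% interval -3.26 to -1.14; edgeR adjusted p = 0.033), a 4.58-fold difference. These levels rest on 15, 28 and 25 counts in proximal and 2, 6 and 5 counts in distal libraries. Pooled by region, the counts were in a ratio of 0.216, distal over proximal (exact 95% interval 0.109 to 0.394, counting error only). In bulk RNA, fewer cells that express a gene and less RNA per cell cannot be told apart.

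The Heyl call depended on the libraries used. It was lost without proximal library 2 (adjusted p = 0.17) or 3 (0.068), without distal library 1 (0.14), 2 (0.059) or 3 (0.060), and with limma-voom (0.059). It was kept without proximal library 1 (0.040) and with DESeq2 (0.018). The log2 fold change stayed between -2.59 and -1.78 in all 15 alternatives that gave a value.

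Summed markers of skeletal muscle and of mural cells were, like Heyl, higher in proximal libraries, the mural sum mostly through Acta2. Those of Schwann and nerve cells were lower in proximal libraries, and those of endothelium, blood cells and epidermis overlapped between regions. Summed skeletal muscle markers stood at 440, 557 and 198 CPM in proximal libraries 1 to 3 and at 40.7, 48.9 and 33.2 CPM in distal libraries 1 to 3. Of the 10 muscle markers listed, 6 were analysed and 5 tested (Actc1, Des, Myod1, Myog and Tnnt1), and all 5 were higher in proximal libraries. Among proximal libraries Heyl and the muscle sum were both highest in library 2 and lowest in library 3. Heyl was close in proximal libraries 1 and 3, at 9.95 and 8.91 CPM on 15 and 25 counts. In distal libraries both were highest in library 2, but Heyl was lowest in library 1 and the muscle sum in library 3. Pax3, Pax7, Myf5 and Mymk were not analysed here. Summed markers of mural cells, the contractile cells around vessels, stood at 230 to 276 CPM in proximal and 148 to 177 CPM in distal libraries. Of 5 mural markers tested, Acta2, a smooth muscle actin that embryonic skeletal muscle also expresses, was higher in proximal libraries (log2 fold change -3.20, SE 0.40). The other 4 did not pass: Tagln, whose libraries did not overlap between regions, had -1.04 (SE 0.39), Kcnj8 -0.52, Pdgfrb 0.03 and Cspg4 0.35. Rgs5 and Myh11 were not analysed here. The part of either cell type in the Heyl difference was not tested.

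Hey1 (chromosome 3, 8663359 to 8667256, minus strand) encodes a related repressor known from vessels and from cartilage precursors. It stood at 33.8, 45.4 and 29.6 CPM in proximal libraries 1 to 3 and at 21.1, 16.3 and 22.1 CPM in distal libraries 1 to 3. All 3 distal values were below all proximal ones. The log2 fold change of -0.86 (SE 0.25, 95% interval -1.41 to -0.31) did not pass after adjustment over all genes (edgeR adjusted p = 0.12). It ran from -0.99 to -0.67 over 16 alternatives and passed in none of them (adjusted p = 0.055 to 0.45). Endothelial markers, whose cells are a known site of Hey1, summed to 23.9, 29.5 and 33.2 CPM in the proximal libraries, against 22.1, 21.3 and 26.5 CPM in the distal ones. Of the 9 endothelial markers analysed, only Egfl7 was tested, and its log2 fold change was -0.36 (SE 0.27), which did not pass. The other 8, Pecam1, Cdh5 and Kdr among them, had at most 10 counts in any library. The part of endothelial cells in the Hey1 values was not tested.

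**Figure D2:**
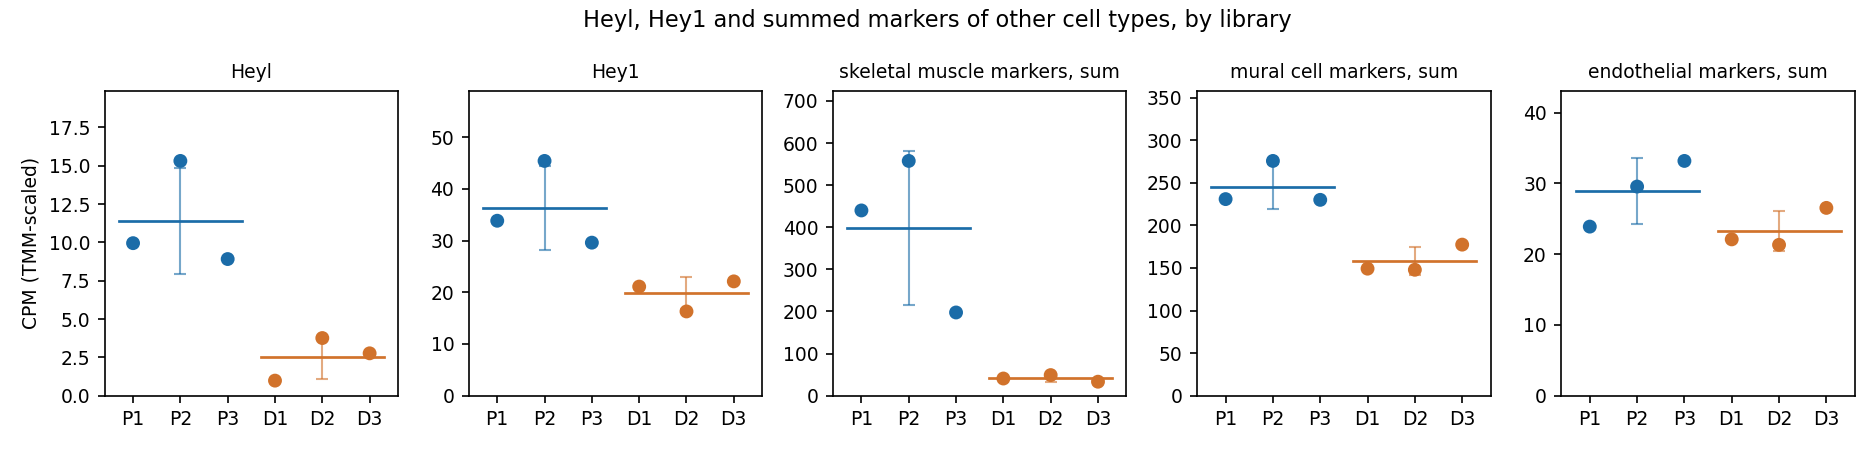
TMM-scaled CPM of Heyl and Hey1 beside the summed CPM of markers of skeletal muscle, mural cells and endothelium, in proximal (P1 to P3) and distal (D1 to D3) libraries, with mean and SD. The muscle sum is 198 to 557 CPM in proximal and 33.2 to 48.9 CPM in distal libraries.

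Hes1 (chromosome 16, 30064384 to 30067796, plus strand), a repressor that answers Notch but also other signals in many tissues, stood at 65.0, 53.6 and 89.1 CPM in proximal libraries 1 to 3 and at 123, 66.4 and 75.7 CPM in distal libraries 1 to 3. The distal mean was raised by library 1, and the other distal values lay within the proximal range. The log2 fold change was 0.34 (SE 0.27, 95% interval -0.24 to 0.93; edgeR adjusted p = 0.80). The pooled count ratio of 1.25 had an exact 95% interval of 1.10 to 1.42, which covers counting error and not the spread between libraries. The fitted values of the 3 target genes thus differed in sign, but Heyl alone passed and the difference between their fold changes was not tested.

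The receptor genes did not differ beyond the spread between libraries. Notch1 (chromosome 2, 26457903 to 26516663, minus strand), the receptor with the broadest known developmental use, stood at 9.95, 19.7 and 22.5 CPM in proximal libraries 1 to 3 and at 14.7, 21.9 and 31.5 CPM in distal libraries 1 to 3. The ranges overlapped (log2 fold change 0.34, SE 0.36, 95% interval -0.45 to 1.14; edgeR adjusted p = 0.88). The value was 0.09 without proximal library 1, 0.03 without distal library 3 and -0.23 without both, and passed in none of these. Notch2 (chromosome 3, 98013527 to 98150361, plus strand), the receptor that is known to dominate in bone cells, stood at 26.5, 29.0 and 27.1 CPM in proximal libraries and at 16.7, 31.3 and 22.7 CPM in distal libraries. Its proximal values lay within the distal range (log2 fold change -0.24, SE 0.26, 95% interval -0.82 to 0.34; edgeR adjusted p = 0.89).

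Notch3 (chromosome 17, 32120820 to 32166852, minus strand), the receptor best known from mural cells, stood at 71.0, 123 and 172 CPM in proximal libraries 1 to 3 and at 83.4, 95.9 and 140 CPM in distal libraries 1 to 3. All distal values fell within the proximal range (log2 fold change -0.21, SE 0.30, 95% interval -0.88 to 0.46; edgeR adjusted p = 0.93). The value turned to 0.13 without proximal library 3. Without both proximal library 1 and distal library 3 it was -0.73 and passed (edgeR adjusted p = 0.035), with 2 libraries left in each region. For Notch3 these were the lowest proximal and the highest distal library, so leaving both out had to lower the value. The exact 95% interval of the pooled count ratio, 0.717 to 0.890, lay below 1 and covers counting error only.

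The ligand genes of the canonical pathway were near the limit of detection. Jag1 (chromosome 2, 137081456 to 137116644, minus strand), which encodes a Jagged ligand, had 4, 6 and 8 counts in proximal libraries 1 to 3 and 9, 9 and 14 counts in distal libraries 1 to 3. In CPM these were 2.65 to 3.28 and 4.42 to 7.74, so the regions did not overlap. The pooled ratio was 2.01 (exact 95% interval 1.09 to 3.79, counting error only). Fitted without a filter, the log2 fold change was 0.99 (SE 0.46) and did not pass (edgeR adjusted p = 0.44). Dll1 (chromosome 17, 15367354 to 15376872, minus strand), a Delta ligand, had 2, 4 and 1 counts in proximal and 5, 0 and 1 counts in distal libraries. These 13 counts allow a pooled ratio anywhere from 0.268 to 3.36 (exact 95% interval, counting error only). A regional difference in Dll1 within that range could not be resolved at this depth. A count of 0 allows up to 3 counts, which correspond to 1.89 CPM by the total of distal library 2.

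Neither gene of the nuclear complex passed, and their fitted fold changes were small, with a wide interval for Maml1. Rbpj (chromosome 5, 53466152 to 53657362, plus strand), which encodes the pathway's DNA-binding protein, stood at 70.3, 77.7 and 87.0 CPM in proximal libraries 1 to 3 and at 72.6, 80.2 and 94.0 CPM in distal libraries 1 to 3. The regions overlapped almost wholly (log2 fold change 0.06, SE 0.18, 95% interval -0.33 to 0.45; edgeR adjusted p = 0.97). Maml1 (chromosome 11, 50255634 to 50292311, minus strand), which encodes a Mastermind-like coactivator, stood at 17.2, 48.7 and 51.7 CPM in the proximal libraries, and at 32.4, 32.6 and 58.0 CPM in the distal ones. Proximal library 1 was the low one (log2 fold change 0.04, SE 0.38, 95% interval -0.81 to 0.88; edgeR adjusted p = 0.995). Both signs turned without proximal library 1 or without distal library 3, to -0.01 and -0.04 for Rbpj and to -0.29 and -0.30 for Maml1. Exons of Notch1, Notch2, Notch3, Dll1 and Maml1 overlap other annotated genes in part, and whether counting used strand is not stated, so some of their reads cannot be assigned with certainty.

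The sequence before a start site of Rbpj itself is shown because RBPJ binds TGGGAA, the core of its recognition site, and Rbpj was the 1 gene of the 7 members with a RefSeq promoter entry to hold that core in the 250 bases upstream. The matches, read on both strands and shown in capitals (TTCCCA is the reverse complement), begin 149 and 65 bases before the start (chr5:53590096-53590345, plus strand, RefSeq GRCm38.p6). This start is 1 of 2 for Rbpj in the RefSeq table used here, both inside the longer gene span given above, and the overlapping window before the other held 1 core, the TTCCCA shown here.
Rbpj: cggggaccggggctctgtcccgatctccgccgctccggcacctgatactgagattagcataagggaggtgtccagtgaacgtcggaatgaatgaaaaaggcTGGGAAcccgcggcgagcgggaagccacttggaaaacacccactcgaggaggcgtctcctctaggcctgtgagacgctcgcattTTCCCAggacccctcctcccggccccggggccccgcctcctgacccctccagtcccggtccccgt
Of 32851 RefSeq promoters, 21.6% held at least 1 such core in a window of this length and 2.77% held 2 or more, so a match is a description of the letters and not of binding. The N box, CACNAG, through which HES1 represses genes, was found on either strand upstream of Notch1, Notch2 and Notch3, against 36.7% of all promoters. The Rbpj window above held no N box, so none overlaps the matches in capitals.

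Within each region, several of the genes varied together from library to library. Relative to the mean log2 CPM of its own region, proximal library 1 was lower by 0.67 for Notch1, 0.68 for Notch3 and 0.99 for Maml1, while distal library 3 was higher by 0.52, 0.43 and 0.54. Rbpj shifted the same way by 0.15 and 0.20. In all, 4 of the 8 tested genes were lowest of the proximal libraries in library 1 and highest of the distal libraries in library 3, which held for 23.9% of all genes tested. Within-region standard deviations (log2) were 0.69 for Maml1, 0.56 for Notch1 and 0.53 for Notch3, with a median of 0.30 over all genes tested, and only 4.57% of tested genes had a larger value than Maml1. Rbpj varied little, at 0.17. These standard deviations include counting error, which is larger at low counts, and genes of similar counts were not compared. Hes1 and Heyl did not share the pattern of proximal library 1 and distal library 3. Hes1 was highest in proximal library 3 and distal library 1, and Heyl in library 2 of each region. Rn45s was highest in proximal library 1, the library in which Notch1, Notch3 and Maml1 were lowest, and its part in their values was not tested.

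**Figure D3:**
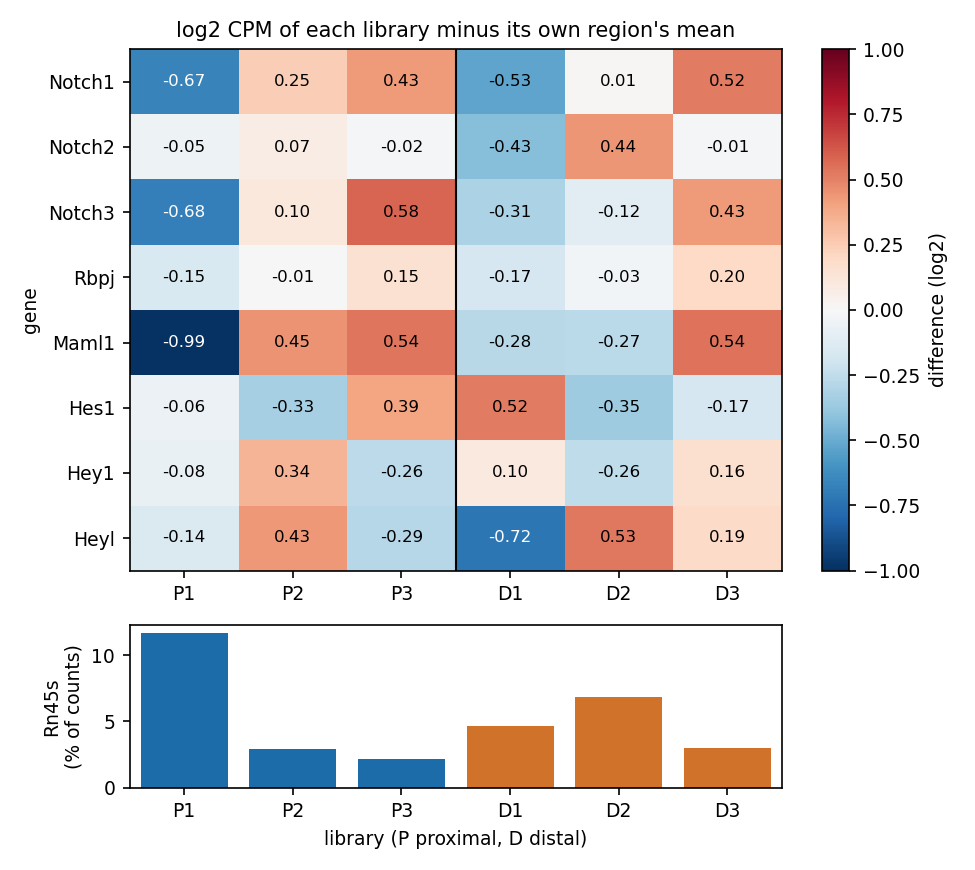
Upper panel, log2 CPM of the 8 tested Notch pathway genes in each library minus the mean of its own region (red above, blue below); lower panel, the percentage of each library's counts taken by Rn45s. Among proximal libraries Notch1, Notch3 and Maml1 are lowest in library 1 (P1), and among distal libraries they are highest in library 3 (D3), while Hes1 and Heyl follow other orders.

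Beyond these 10, 59 further genes of the pathway were listed by role. Of these, 49 were analysed and 37 tested, and 1 passed: Dlk1, higher in proximal libraries, against 3.39% of all genes tested. The median log2 fold change of the 37 was 0.01, as over all genes tested, and the median of its size without sign was 0.21 against 0.20.

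Dlk1 (chromosome 12, 109452823 to 109463336, plus strand) encodes a Delta-like protein that lacks the domain by which canonical ligands activate Notch, and is an imprinted gene also known from embryonic muscle and preadipocytes. It stood at 1123, 1534 and 1728 CPM in proximal libraries 1 to 3 and at 519, 415 and 728 CPM in distal libraries 1 to 3. All proximal values were above all distal ones. The log2 fold change was -1.40 (SE 0.22, 95% interval -1.89 to -0.91; edgeR adjusted p = 0.0060), a 2.64-fold difference. It passed in all 16 alternatives, with log2 fold changes of -1.80 to -1.23 and adjusted p of at most 0.041. Among proximal libraries Dlk1 was lowest in library 1 and highest in library 3. The muscle sum was highest in library 2 and lowest in library 3. The part of muscle cells in the Dlk1 difference was not tested. The 250 bases before its start (chr12:109452573-109452822, plus strand, RefSeq GRCm38.p6) are shown because it was the pathway gene whose difference held in every alternative; they contain neither TGGGAA nor CACNAG on either strand, so no letter is in capitals.
Dlk1: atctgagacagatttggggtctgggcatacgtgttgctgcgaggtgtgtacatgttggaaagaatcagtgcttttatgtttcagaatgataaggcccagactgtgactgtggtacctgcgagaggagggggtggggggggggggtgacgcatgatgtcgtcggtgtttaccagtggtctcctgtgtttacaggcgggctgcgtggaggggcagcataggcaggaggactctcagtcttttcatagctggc

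Among the enzymes that prepare ligands and receptors, none passed with all 6 libraries. Poglut1, an O-glucosyltransferase that modifies the receptor, had a log2 fold change of 0.21 (SE 0.32), but without proximal library 1 and distal library 3 it passed at 0.80, higher in distal libraries (edgeR adjusted p = 0.037). Neurl1a, which encodes a ubiquitin ligase of the Neuralized family that promotes ligand endocytosis, stood at 17.2, 15.3 and 17.5 CPM in the proximal libraries, and at 5.89, 8.77 and 9.40 CPM in the distal ones. The regions did not overlap, but its log2 fold change of -1.06 (SE 0.30) missed the threshold (edgeR adjusted p = 0.10). Pofut1, the O-fucosyltransferase that modifies the receptor's extracellular repeats, stood at 39.1 to 42.1 CPM in proximal and 27.6 to 33.7 CPM in distal libraries, a difference of -0.43 on the log2 scale (SE 0.19; edgeR adjusted p = 0.46). Adam10, the protease of the first activating cut, differed by -0.65 on the log2 scale (SE 0.30; edgeR adjusted p = 0.48). None of the 9 tested proteases passed, and their median log2 fold change was -0.01.

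Genes that dampen or tune the signal also did not pass with all 6 libraries and region as the sole term. Numbl, a relative of the Notch inhibitor Numb, stood at 82.9, 108 and 117 CPM in the proximal libraries, and at 50.1, 66.4 and 84.6 CPM in the distal ones. Distal library 3 exceeded proximal library 1, and the log2 fold change was -0.62 (SE 0.22; edgeR adjusted p = 0.24). Without proximal library 1 and distal library 3, Numbl passed at -0.96 (edgeR adjusted p = 0.0094). With the replicate number as a block, Numbl passed at -0.63 (edgeR adjusted p = 0.041). Dtx3l and Dtx3, which encode Deltex-family ubiquitin ligases, had log2 fold changes of 0.79 (SE 0.47) and 0.46 (SE 0.30) and did not pass. Exons of Dtx3l overlap those of Parp9 on the other strand, and whether counting used strand is not stated, so its reads cannot be assigned with certainty. The Groucho-type corepressor genes Tle1, Tle3 and Tle4, whose products work with Hes and Hey proteins, had log2 fold changes of 0.37, 0.50 and 0.42 (SE 0.20, 0.27 and 0.20; edgeR adjusted p = 0.63, 0.60 and 0.53). That of Tle3 was 0.28 without proximal library 1, 0.25 without distal library 3 and 0.03 without both. Of the 11 tested nuclear cofactors, 8 had positive fold changes and none passed. Lfng, Mfng, Jag2, Dll4, Hes5, Crebbp, Neurl3, Hes2, Hes3 and Helt were not analysed here.

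**Figure D4:**
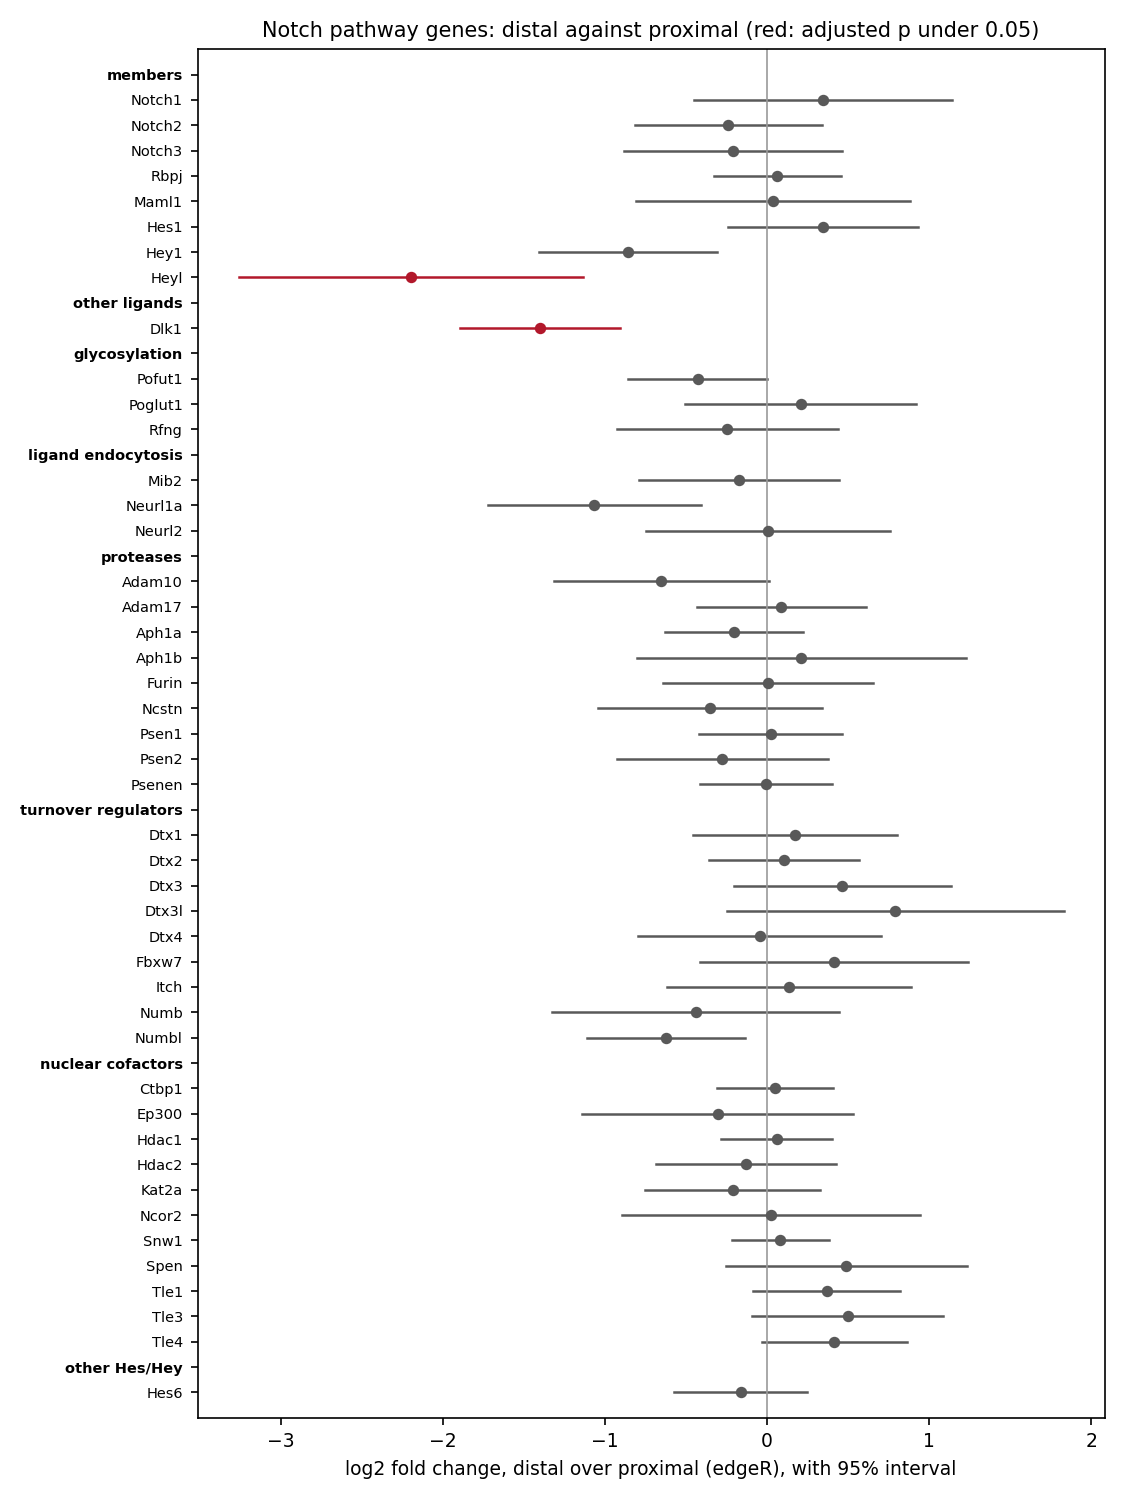
Log2 fold changes, distal over proximal, of the tested Notch pathway genes by role, with 95% intervals from edgeR's quasi-likelihood fit; red marks an adjusted p under 0.05. Heyl (-2.20) and Dlk1 (-1.40) are the 2 that passed, and most intervals span 0.

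The genes whose levels tracked Heyl most closely over the 6 libraries were Cachd1, Hvcn1, Sdpr and Atp2b4 (Pearson correlations of log2 CPM of 0.995, 0.995, 0.992 and 0.992). Of these, Hvcn1, a proton channel gene, passed the regional test at -1.71 (SE 0.28; edgeR adjusted p = 0.0065). For Hes1 they were 2310009B15Rik, Klf13, 0610010K14Rik and Dclre1b (0.995, 0.993, 0.977 and 0.970). With 6 libraries such values are easily reached: 179 genes exceeded 0.9 with Heyl and 32 with Hes1.

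**Figure D5:**
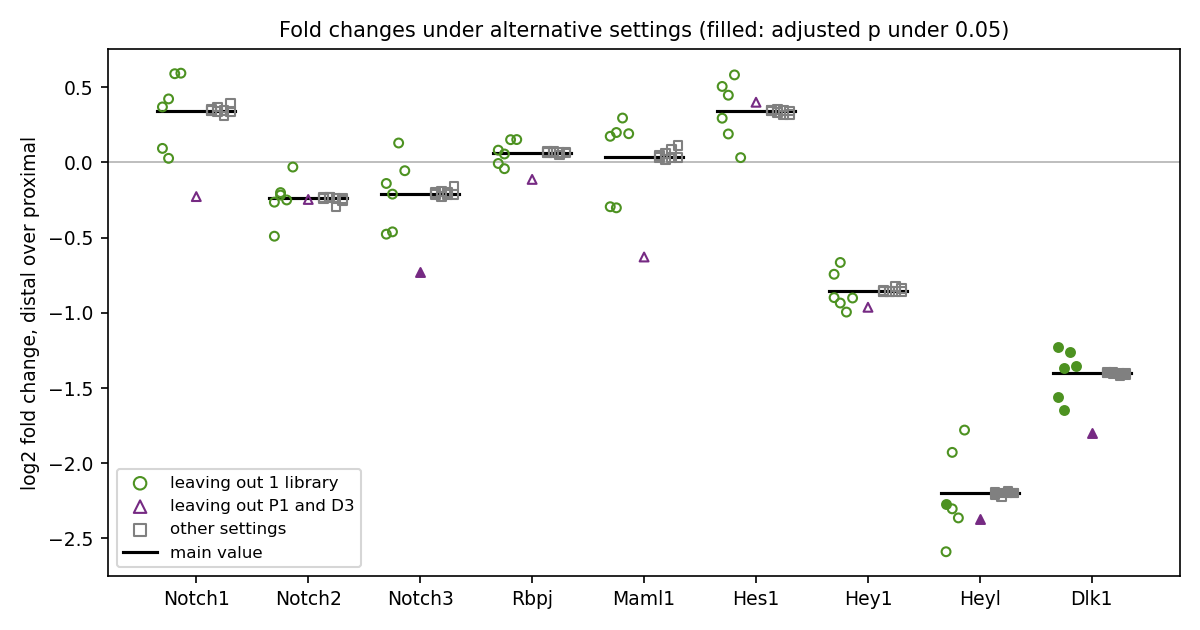
Log2 fold changes, distal over proximal, of the 8 tested Notch pathway genes and Dlk1 under each alternative, with the main value as a black line; filled symbols have an adjusted p under 0.05. Dlk1 and Heyl stay below 0 throughout. Leaving out proximal library 1 (P1) and distal library 3 (D3) together moves Notch1, Notch3, Rbpj and Maml1 downward. This shift is fixed in advance, because for these genes P1 is the lowest proximal and D3 the highest distal library.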

How the data were processed

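RNA from sorted forelimb cells was measured in 3 proximal and 3 distal libraries. The authors deposited raw counts by gene, and every listed gene has a sum of at least 6. Its normalized columns are a signal for which the authors divided each library by its own size factor; they entered no test. The submitters' processing notes name TopHat2 and HTSeq with mm10, besides DESeq2, bcl2fastq 2.17.1.14 and cutadapt 1.8.3, and give them no roles. Not given in the sources used here are the annotation, whether counting used strand, and how molecular identifiers were handled.

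The regional comparison used edgeR 4.0.16 (R 4.3.3) with TMM scaling. The default filterByExpr (minimum count 10, minimum total 15) left 9512 of 13158 genes, which entered a robust quasi-likelihood fit and F test with region as the sole term. P-values are two-sided and adjusted by Benjamini-Hochberg over all genes tested, with a threshold of 0.05. SE is the absolute log2 fold change divided by the root of F, and 95% intervals follow from it. The procedure was tested on simulated data. Levels are TMM-scaled CPM, and log2 CPM used a prior count of 2; 3' counts were not divided by length, so levels are not compared between genes. Alternatives were other scalings, no filter or 10 CPM in 3 libraries, DESeq2 1.42.0, limma-voom (limma 3.58.1), the replicate number as a block, libraries left out, Rn45s left out and an adjusted p of 0.01. The members and lists were chosen with earlier results of these data known. Named genes were all members, other pathway genes past the threshold or among the 10 smallest p-values, the 4 genes most correlated with Heyl and Hes1, and markers. Further genes were singled out with their values in view. Positions are from GENCODE M21 (GRCm38). Exons of 5 of the 10 members (Jag1, Rbpj, Hes1, Hey1 and Heyl) overlap no other annotated exon; those of the others overlap genes that were not analysed here.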

Additional observations from a re-analysis of the deposited data

How the results depend on the processing

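The count of genes called, 322, became 143 at an adjusted p of 0.01 (42 higher in distal, 101 in proximal) and 862 without proximal library 1 and distal library 3 (441 and 421). Leaving out 1 library gave 171 to 334 (42 to 114 and 114 to 220). With the replicate number as a block it was 465 (184 and 281). Same-numbered libraries of the regions share a number in their sample titles, which may mark a common origin, but its meaning is not stated. They correlated at 0.35, -0.14 and 0.48 in their deviations from region means. With so few libraries these correlations cannot decide whether the libraries are paired. The main test took them as unpaired, so its p-values and counts hold only under that choice.

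Of the 10 Notch genes, the call of Heyl was lost at an adjusted p of 0.01 and with limma-voom, and Heyl was not tested with 10 CPM in 3 libraries, which leaves 0 calls in each case, against 1. The count was 0 to 1 with 1 library left out and 2 without proximal library 1 and distal library 3, where Notch3 joined Heyl. It was 1 under the replicate block. No member passed with distal libraries higher in any setting. Among the other pathway genes, 1 call became 2 under the replicate block, which adds Numbl (adjusted p = 0.041), and 4 without both libraries (3 higher in proximal, 1 in distal). Values that turned sign without both were -0.23 for Notch1, -0.11 for Rbpj and -0.63 for Maml1. With 1 library left out, Notch3 ran from -0.48 to 0.13 (positive without proximal library 3), Rbpj from -0.042 to 0.15 and Maml1 from -0.30 to 0.29, these 2 being negative without proximal library 1 or distal library 3. The causes were not tested. Over 8 members, 119 of 135 values kept their direction and their side of the threshold, as did 168 of 170 over the 10 other named genes. Depth limits Jag1, Dll1 and the distal values of Heyl.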

Other observations

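Some pathway genes outside the test had few counts, and were picked out after their values were seen. Dll3, a divergent Delta-like gene known from somite segmentation, had 3, 5 and 5 counts in proximal libraries 1 to 3 and 20, 4 and 14 counts in distal libraries 1 to 3. The pooled distal to proximal ratio was 3.30 (exact 95% interval 1.72 to 6.75, counting error only), but distal library 2 was within the proximal range in CPM. Fitted without a filter, its log2 fold change was 1.65 (SE 0.56; edgeR adjusted p = 0.19). Nrarp, a feedback regulator that Notch activity induces, had 18 counts over the proximal and 16 over the distal libraries, a ratio of 1.00 (exact 95% interval 0.478 to 2.08). Of 7 other Hes and Hey genes listed, Hes6 was the 1 tested, with a log2 fold change of -0.16 (SE 0.19), which did not pass.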
